A study of Mus musculus with 4 samples.

Results

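Immediate early genes are transcribed within minutes of a stimulus without the need for new protein, and in the brain their messenger RNAs are widely used as a record of recent neuronal activity. The 10 genes described here were chosen by symbol and not by a rule on measured values, though earlier results of these data were known. They were the AP-1 subunits Fos, Fosb, Jun and Junb, the zinc finger factor Egr1 and the neuron-enriched factor Npas4. The others were the orphan nuclear receptors Nr4a1, Nr4a2 and Nr4a3, and Arc, which acts at the synapse. All 10 were found in the gene table, and all 10 had at least one UMI (unique molecular identifier, one counted RNA molecule) in each library. They were followed in single-nucleus RNA sequencing of the mouse lateral septum (LS), a forebrain region of inhibitory neurons, in 4 libraries. C57J 1 and C57J 2 came from C57BL/6JNifdc mice, the nude library from BALB/c nude mice, which lack T cells and share the BALB/c background, and the BALB/c library from BALB/c mice.

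All mice were males aged 6 to 8 weeks by the labels, which name no treatment. Each library pooled the LS of several mice, so a library was 1 sample and mice could not be told apart. C57J 1 was sequenced in batch 1 and the other libraries in batch 2, and nude and BALB/c had 1 library each. The study processed nude and BALB/c in parallel with C57J 2, so the batch may also cover steps before sequencing. The tissue was perfused, dissected and frozen, and nuclei were released in buffer with 3 µM actinomycin D, a compound that blocks transcription. By the study, the mice were anesthetized with injected pentobarbital before perfusion. The levels describe mice taken without a stated stimulus beyond these steps, and the effect of the steps on the genes was not tested.

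As background, calcium entry and growth factor signals reach these genes through kinases that act on factors already bound to their promoters. CREB binds the cyclic AMP response element (CRE), and serum response factor with its partners binds the CArG box. The Fos and Jun proteins then pair to form AP-1, Egr1 and Npas4 drive further waves of transcription, the Nr4a receptors act without a known ligand in the cell, and Arc protein moves glutamate receptors from the synapse. Npas4 is unusual in that calcium entry induces it in neurons, whereas Fos, Jun, Junb and Egr1 also respond to growth factors and stress in glia.

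The promoters of the members were read to show what the group shares in sequence. Of the 10 genes, 8 had an entry in the RefSeq promoter table (GRCm38.p6), and Arc and Egr1 had none. Its entries span 250 bases before to 50 bases after each start. Only the 250 bases before the start were searched, in the members and in all promoters. The short CRE core, TGACG or its reverse complement CGTCA, was present in 7 of 8 members, compared with 17.8% of the 32851 promoters in that table. The members with matches were Fos, Fosb, Junb, Npas4, Nr4a1, Nr4a2 and Nr4a3, and Jun had none in this window. The full palindrome TGACGTCA, which contains the short core, was in none of the 8 members and in 1.55% of all promoters. The CArG box was in none of the 8 and in 1.47% of all promoters. The AP-1 site TGAGTCA or TGACTCA was likewise in none of the 8 and in 4.46% of all promoters, and TATAAA was in 1 of 8, Fos, and in 7.59% of all promoters. Both strands were searched except for TATAAA, which was searched on the gene's own strand only, a match is only a run of letters, and the windows are short.

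The searched windows of 5 members are given because their levels set the patterns described further on. Fos and Junb ran closest to the sum of the other members over LS subclusters and libraries. The 3 Nr4a receptors, members of one family, had unlike patterns across cell types. Each runs 5′ to 3′ on the gene's own strand, with the short CRE core in capitals:
Fos, chr12:85473640-85473889, plus strand: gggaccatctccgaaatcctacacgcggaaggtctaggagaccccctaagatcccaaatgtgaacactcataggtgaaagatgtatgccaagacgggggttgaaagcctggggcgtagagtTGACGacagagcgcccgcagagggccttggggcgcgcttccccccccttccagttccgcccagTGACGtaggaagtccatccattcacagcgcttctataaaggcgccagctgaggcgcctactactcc
Junb, chr8:84978749-84978998, minus strand: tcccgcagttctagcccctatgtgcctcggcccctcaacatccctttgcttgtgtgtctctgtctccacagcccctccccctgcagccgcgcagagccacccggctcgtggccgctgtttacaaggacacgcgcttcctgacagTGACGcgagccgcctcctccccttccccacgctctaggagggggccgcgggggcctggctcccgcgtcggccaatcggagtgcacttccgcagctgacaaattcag
Nr4a1, chr15:101266596-101266845, plus strand: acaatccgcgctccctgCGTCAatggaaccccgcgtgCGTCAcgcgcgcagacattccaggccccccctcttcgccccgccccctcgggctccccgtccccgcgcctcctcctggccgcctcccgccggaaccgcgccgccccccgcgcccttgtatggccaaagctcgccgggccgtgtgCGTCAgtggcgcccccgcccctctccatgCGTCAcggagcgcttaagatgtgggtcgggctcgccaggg
Nr4a2, chr2:57124004-57124253, minus strand: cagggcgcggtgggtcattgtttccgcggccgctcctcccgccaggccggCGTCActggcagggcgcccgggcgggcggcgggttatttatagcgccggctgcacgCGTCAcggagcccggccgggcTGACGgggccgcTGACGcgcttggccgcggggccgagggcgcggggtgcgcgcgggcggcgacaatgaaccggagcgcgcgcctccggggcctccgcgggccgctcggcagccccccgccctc
Nr4a3, chr4:48045055-48045152, plus strand: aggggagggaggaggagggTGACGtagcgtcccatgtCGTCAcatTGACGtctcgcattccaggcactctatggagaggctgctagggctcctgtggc

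The Fos window held 2 cores, the Junb window held 1, and the Nr4a1 and Nr4a2 windows held 4 each. The Nr4a3 window was ended at the first annotated exon and held 3 in 98 bases. The Nr4a1 window lies inside the annotated gene, which starts further upstream at 101254269 in its longer transcripts. In the mm10 annotation (GENCODE) Fos lies on chromosome 12 from 85473890 to 85477273 and Junb on chromosome 8 from 84974484 to 84978718. Nr4a1 lies on chromosome 15 from 101254269 to 101274795, Nr4a2 on chromosome 2 from 57106830 to 57124003 and Nr4a3 on chromosome 4 from 48045153 to 48086447.

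After the study's limits on genes, UMIs and mitochondrial reads, and after removal of predicted doublets, 49113 nuclei were kept, from 10866 to 12945 per library. The median was 4111 to 5355 UMIs per nucleus in C57J 1, C57J 2 and nude and 8422.5 in BALB/c, the deepest library. LS neurons, the clusters that carried Trpc4, Dgkg, Homer2 and the other LS markers, made up 20943 nuclei and 40.4% to 47.7% of each library. In LS neurons the median mitochondrial share was 0.352% in C57J 1 and 0.142% to 0.206% in the batch 2 libraries. Pairs of libraries shared 29 to 63 barcodes, at most 0.478% of the smaller library. Levels are given as counts per 1000000 UMIs of the same class and library (CPM), with exact 95% Poisson intervals where printed, which cover counting error only.

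In LS neurons all 10 genes were measured on 94 or more UMIs in every library. Fos stood at 10.4 CPM (9.46 to 11.4) in C57J 1, 9.69 (8.69 to 10.8) in C57J 2, 6.30 (5.57 to 7.09) in nude and 14.2 (13.3 to 15.2) in BALB/c. Its close relative Fosb stood at 3.75, 4.91, 2.99 and 8.51 CPM in the same order of libraries. For both genes nude was the lowest and BALB/c the highest library, and the 2 C57J libraries lay between them. Of their partners, Jun stood at 8.10, 6.29, 6.78 and 9.36 CPM, and Junb at 19.9, 18.98, 15.5 and 27.0 CPM. BALB/c was again the highest for both, whereas the lowest was C57J 2 for Jun and nude for Junb.

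Egr1 was present at 49.1, 41.4, 42.4 and 65.5 CPM in C57J 1, C57J 2, nude and BALB/c. Npas4 was present at 16.7, 18.3, 13.6 and 21.6 CPM, and Arc at 22.1, 15.4, 12.7 and 23.9 CPM. The BALB/c library was highest for these 3 genes too, and for Arc it was close to C57J 1. Among the nuclear receptors, Nr4a1 stood at 30.8, 24.3, 26.04 and 30.2 CPM and Nr4a3 at 15.1, 8.99, 10.8 and 14.0 CPM, with C57J 1 the highest for both. Nr4a2 stood apart from the rest of the group, at 4.64 (4.03 to 5.31) and 4.61 (3.93 to 5.37) CPM in the C57J libraries and 2.18 (1.76 to 2.66) and 2.37 (1.99 to 2.79) CPM in nude and BALB/c. Summed over the 10 genes the LS neurons held 180.5, 153, 139 and 217 CPM.

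**Figure D1:**
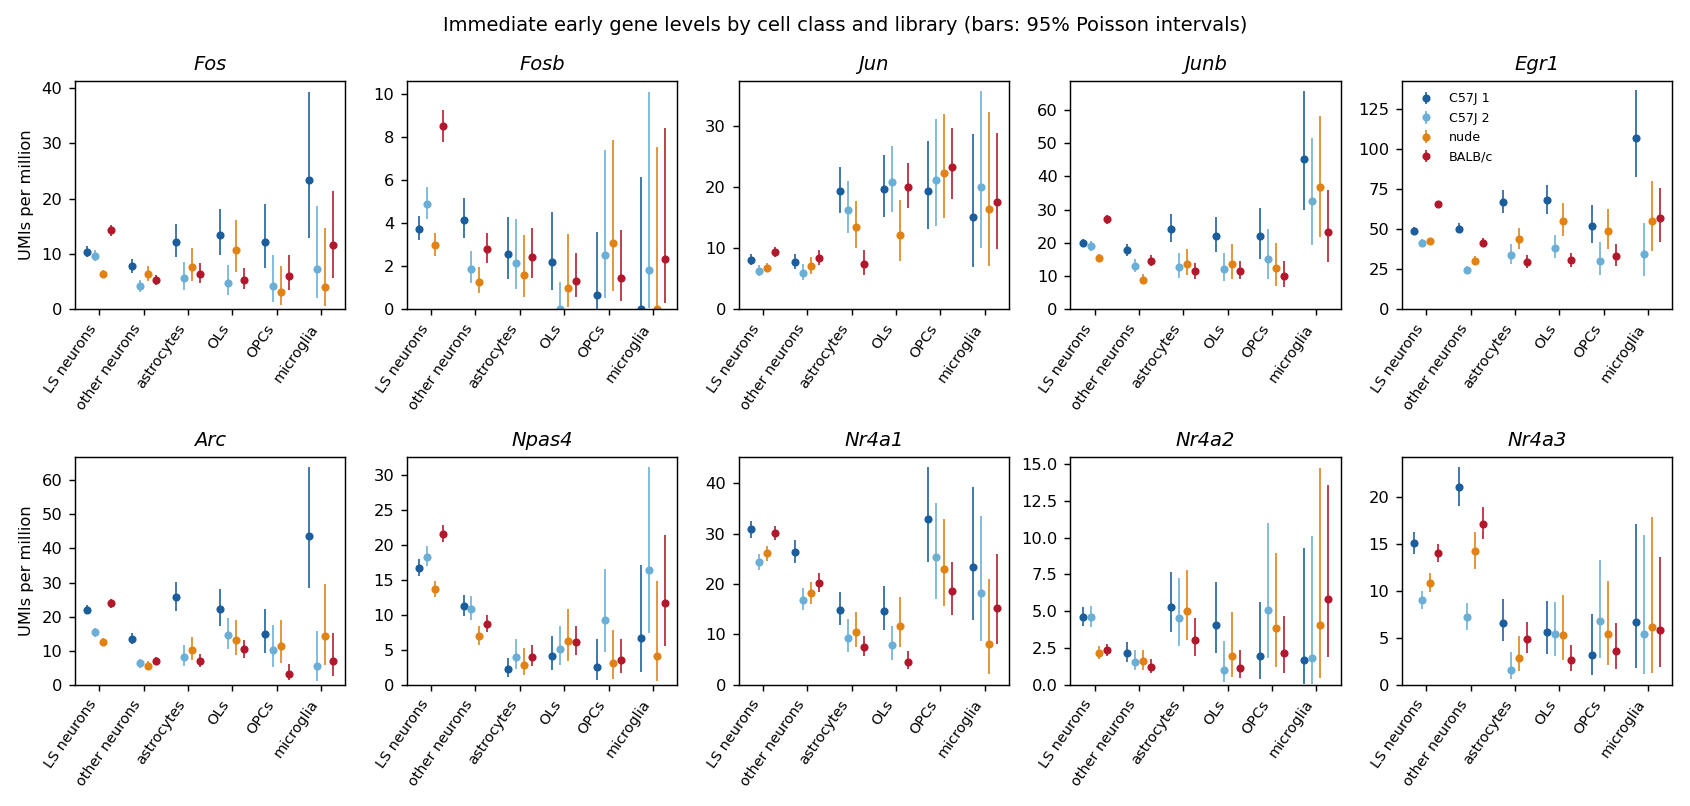
Levels of the 10 immediate early genes (CPM) in 6 cell classes; each point is 1 library and bars are exact 95% Poisson intervals. Npas4 and Nr4a3 sit higher in the neuron classes than in astrocytes, and Jun sits higher in OPCs than in LS neurons, in every library.

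The summed members were compared over 15 cell types, and neighbours in that order overlapped over the libraries throughout. The highest sums were in a cluster named vascular and fibroblast nuclei, from 201 to 293 CPM on only 78 UMIs. Its name covers endothelial, mural and fibroblast markers together. The leading genes Cped1, Slc6a20a, Apod, Slc7a11, Cemip, Ranbp3l, Lama1 and Colec12 held none of these markers. Which of these cells carried the sum was not tested. An unnamed low-depth cluster had from 197 to 298 CPM on 339 UMIs. Striatal neurons followed at 153 to 266 CPM, then microglia at 143 to 273 CPM and LS neurons at 139 to 217 CPM. The other neuron types lay lower, namely the Onecut2 Dach1 neurons at 82.6 to 141 CPM, the Glra3 Baiap3 neurons at 79.9 to 116 CPM, the Ebf2 Ebf3 neurons at 83.8 to 124 CPM and the cholinergic neurons at 61.5 to 118 CPM. The Lhx6 neurons, inhibitory cells that carry medial septum markers, were last at 50.03 to 76.8 CPM, with every library below every library of the LS neurons.

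Single members departed from that order. Nr4a3 was highest in the Onecut2 Dach1 neurons at 27.4, 17.2, 32.4 and 37.8 CPM in C57J 1, C57J 2, nude and BALB/c, and in striatal neurons at 32.5, 14.0, 27.3 and 34.5 CPM. Those values exceeded the LS neuron value of the same library in 4 of 4 libraries for both types. Nr4a2 ran the other way in striatal neurons, at 1.56, 0.311, 0.455 and 0.469 CPM on 17 UMIs in all, below the LS neurons in each library. Fosb was highest in striatal neurons at 2.73 to 8.45 CPM and in LS neurons, and in the Lhx6 neurons it was found by 6 UMIs in all. Jun was higher outside neurons, at 19.3 to 23.3 CPM in OPCs (oligodendrocyte precursor cells) and 12.1 to 20.8 CPM in OLs (oligodendrocytes).

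Neurons were then set against each glial class within the libraries, with an edgeR quasi-likelihood fit of summed UMIs and the library as a block. A gene was called at an adjusted p under 0.05 and a log2 fold change beyond 0.5. Since libraries were pools and the same 4 libraries supply both classes, these p-values measure the spread between libraries only. Against astrocytes 4 of 10 members were higher in neurons, compared with 26.4% of all genes tested, and none was lower, compared with 26.1%. The calcium-induced Npas4 led with a log2 fold change of 2.41 (SE 0.16, edgeR adjusted p = 1.41e-05), from 2.20, 4.00, 2.90 and 3.97 CPM in astrocytes and 15.1, 16.1, 11.955 and 17.97 CPM in all neurons. The groups did not overlap. Nr4a3 followed at 1.86 (SE 0.17), Nr4a1 at 1.499 (SE 0.14) and Fosb at 1.16 (SE 0.22).

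Against OLs the same 4 genes were called higher, compared with 28.8% of genes, with log2 fold changes of 2.06 (SE 0.45) for Fosb, 1.59 (SE 0.18) for Npas4, 1.61 (SE 0.23) for Nr4a1 and 1.61 (SE 0.26) for Nr4a3. Jun was lower in neurons at -1.21 (SE 0.16, edgeR adjusted p = 0.000304), compared with 24.2% of genes called lower. Its levels were 19.7, 20.8, 12.1 and 19.9 CPM in OLs and 7.99, 6.19, 6.85 and 9.07 CPM in neurons, so each OL value lay above every neuron value.

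Against OPCs 4 members were called higher, compared with 20.6% of genes, and Jun was lower at -1.44 (SE 0.16), compared with 19.8% of genes called lower. Npas4 stood at 1.92 (SE 0.26) and Nr4a3 at 1.63 (SE 0.27). Fosb at 1.43 (SE 0.44) and Arc at 0.89 (SE 0.29) were the other calls, and both were lost with DESeq2, with nuclei thinned to 1000 UMIs, and without BALB/c (0.90 for Fosb and 0.34 for Arc). Fosb was also lost without C57J 1, at 1.22. Nr4a1, called against the other glial classes, had a log2 fold change of 0.15 (SE 0.14) here, with OPCs at 32.8, 25.3, 23.0 and 18.6 CPM and neurons at 29.5, 22.1, 24.1 and 27.4 CPM. The 2 classes overlapped.

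Against microglia, the resident immune cells, 4 members were called higher, compared with 27.3% of genes. They were Fosb at 2.45 (SE 0.70), Nr4a3 at 1.61 (SE 0.33), Nr4a1 at 1.15 (SE 0.23) and Npas4 at 1.14 (SE 0.29). Jun was lower at -0.70 (SE 0.28, edgeR adjusted p = 0.0423), compared with 19.9% of genes called lower. That call was lost without C57J 1 (-0.79), without C57J 2 (-0.53) and without nude (-0.67). Junb stood at 45.2, 32.7, 36.8 and 23.3 CPM in microglia, where each rests on 18 to 27 UMIs, and at 19.3, 17.2, 13.9 and 23.6 CPM in neurons. Its log2 fold change of -0.38 (SE 0.23) was not called with TMM scaling, but was called at -0.86 without scaling factors and at -0.77 without BALB/c. The Npas4 call against microglia was lost without scaling factors (0.66) and on thinned nuclei (0.29), and the Fosb call on thinned nuclei (1.67), where counts are few.

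Fos, Junb, Egr1 and Nr4a2 were not called against any glial class in this fit. For Egr1 the astrocyte levels of 67.1, 34.1, 43.8 and 29.6 CPM overlapped the neuron levels of 49.5, 36.5, 39.4 and 58.8 CPM. The order of the libraries also turned, since C57J 1 was highest in astrocytes and BALB/c in neurons. For Nr4a2 the astrocyte levels of 5.32, 4.53, 5.01 and 3.07 CPM lay above the neuron level of the same library in 4 of 4 libraries, with a log2 fold change of -0.46 (SE 0.22, edgeR adjusted p = 0.0994), which was called at -0.63 without scaling factors. In microglia the signs of Fos, Egr1, Arc and Nr4a2 turned without scaling factors, where the median of all genes moved from 0.22 to -0.26.

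Free RNA from broken neurons can be counted in glial droplets, so glial levels were set beside 8 neuronal genes in the same nuclei. These (Snap25, Syt1, Gad1, Gad2, Slc32a1, Rbfox3, Grin1 and Stmn2) stood in astrocytes at a median of 56.9%, 52.7%, 58.5% and 30.4% of their neuron level in C57J 1, C57J 2, nude and BALB/c. The members' median in astrocytes was 126%, 67.2%, 96.7% and 42.6%. Both medians were lowest in BALB/c, the library in which Egr1 and Arc in astrocytes were also lowest relative to neurons. In microglia, the shallowest class, the neuronal genes reached a median of 49.3% to 89.6% and the members 81.0% to 134%.

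Single neuronal genes covered a wide range, from 8.15% to 18.5% for Rbfox3 to 66.4% to 181% for Slc32a1 in astrocytes. Npas4 at 14.6% to 24.8% and Nr4a3 at 18.9% to 39.1% lay within that range and low in it. Jun, at 177% to 335% in OLs and 242% to 341% in OPCs, lay above all 8 neuronal genes in OPCs. For Fos, Egr1 and Arc in glia, a share from free neuronal RNA was not tested.

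**Figure D2:**
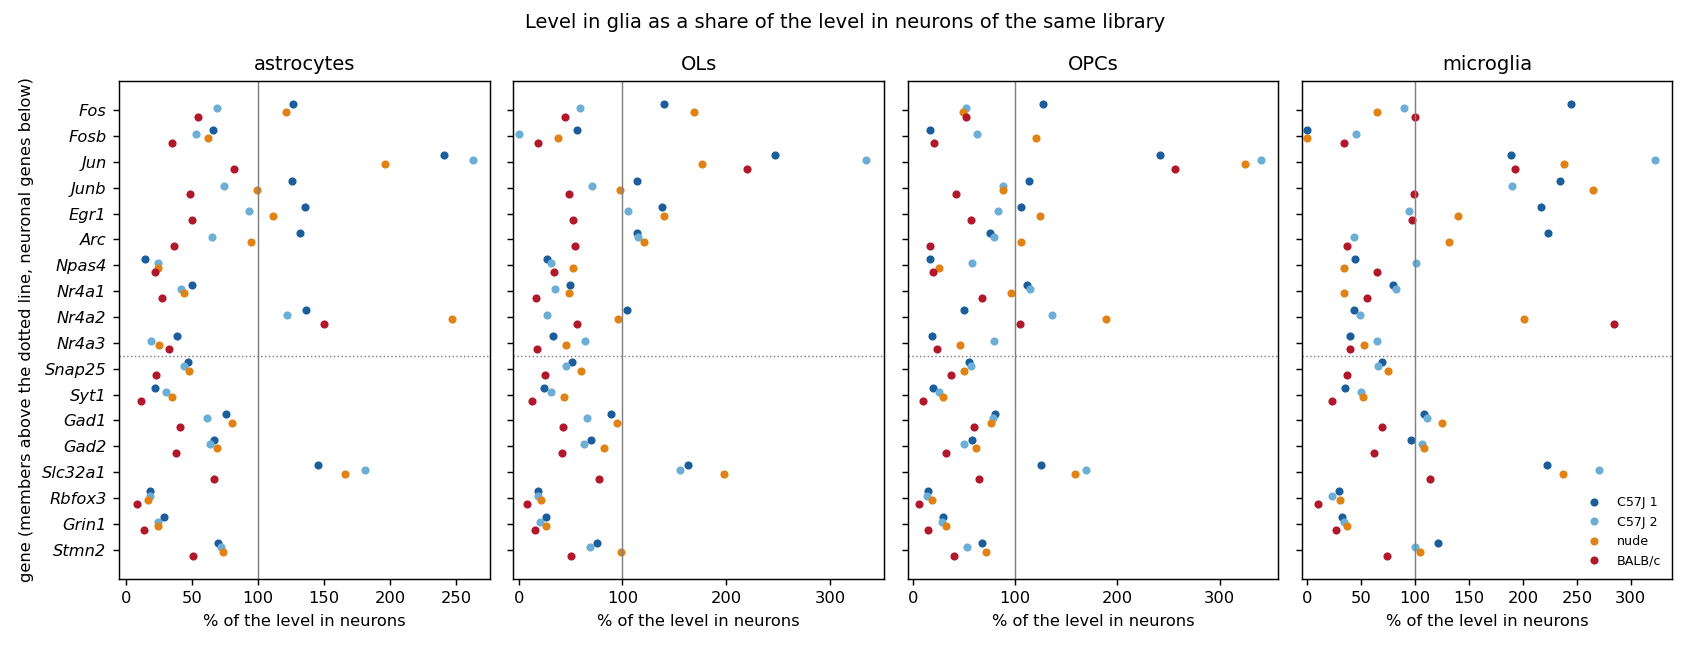
Level in glia as a percent of the level in all neurons of the same library, for the 10 members and 8 neuronal genes in 4 glial classes; each point is 1 library and the vertical line marks an equal level. Npas4 and Nr4a3 lie at 39.1% or less in astrocytes, and Jun lies at 177% or more in OLs and OPCs.

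LS neurons were also compared with the other neurons of the dissection within libraries. Those were a mixed group. Its striatal neurons had a mean sum of 200 CPM over the libraries, above the 172 CPM of LS neurons. The remaining types had means of 59.7 to 121 CPM. Striatal nuclei made up 1550 of 3031 other neurons in C57J 1 and 715 of 2610 in C57J 2. The nude library had 487 of 2518 and the BALB/c library 431 of 1988. LS neurons were not tested against each type singly. Of the 10 members 8 were called higher in LS neurons, compared with 9.45% of all genes tested, and none was lower, compared with 12.6%. Arc had the largest difference at 1.30 (SE 0.16, edgeR adjusted p = 0.00038), from 13.6, 6.30, 5.61 and 6.93 CPM in other neurons to the LS values given above. The LS value was higher in each library, though C57J 1 of the other neurons overlapped nude of the LS neurons. Nr4a2 followed at 1.11 (SE 0.18), Fosb at 1.05 (SE 0.29), Npas4 at 0.98 (SE 0.12) and Fos at 0.87 (SE 0.22). Junb at 0.67 (SE 0.12), Nr4a1 at 0.53 (SE 0.07) and Egr1 at 0.53 (SE 0.12) were nearer the limit. Jun at 0.15 (SE 0.07) and Nr4a3 at -0.18 (SE 0.12) were not called.

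The count changed with the setting. It fell to 3 of 10 with nuclei thinned to 1000 UMIs, to 4 without BALB/c and to 5 without C57J 2, and was 7 without nude. The share of all genes called was not computed under these settings. Whether all genes lost calls alike was therefore not tested. Arc, Npas4 and Nr4a2 kept their calls under each of these settings. LS neurons were deeper than the other neurons, with medians of 6420 to 12820 against 5004 to 10940 UMIs. In single nuclei thinned to 1000 UMIs, a UMI of any member was found in 15.03%, 12.8%, 11.7% and 16.3% of LS neurons. For other neurons the shares were 15.7%, 8.74%, 9.57% and 10.7%, so C57J 1 showed no excess. That library also had the highest share of striatal nuclei among its other neurons, and the part of this mix was not tested.

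Within the LS neurons the immediate early genes were unevenly spread. The LS neurons were divided into 26 subclusters, named by leading genes. The members, the listed rapid and later activity-regulated genes and the heat shock genes were left out of the clustering. Unlisted genes that ran with the members, such as the RNA 1700016P03Rik, a top gene of Nts Sst Chga, were not on these lists. Their part in the division was not tested. The same 5 subclusters held the highest 5 summed levels in each of the 4 libraries. The subcluster Nts Sst Chga (726 nuclei), named for neurotensin, somatostatin and chromogranin A, held 486, 499.6, 471 and 502 CPM in C57J 1, C57J 2, nude and BALB/c. Crhr2 Chga (678 nuclei), with the receptor for corticotropin-releasing hormone family peptides, held 421, 432.5, 418 and 708 CPM. Nts Sst Chga was first and Crhr2 Chga second in 3 libraries, and BALB/c alone had them the other way.

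Nts Sst (1089 nuclei) ranked 3 in every library at 318, 419.8, 232 and 396 CPM. Dach2 Gpr139 (913 nuclei) ranked 5 at 244, 195, 176 and 337 CPM. Ranks 3 and 5 were thus the same in all 4 libraries, across both batches and both backgrounds. At the other end Foxp2 Fgd5, the largest subcluster with 1499 nuclei, held 105, 82.2, 87.0 and 95.7 CPM. Since the 5 subclusters were picked by these levels, no test of them was made.

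**Figure D3:**
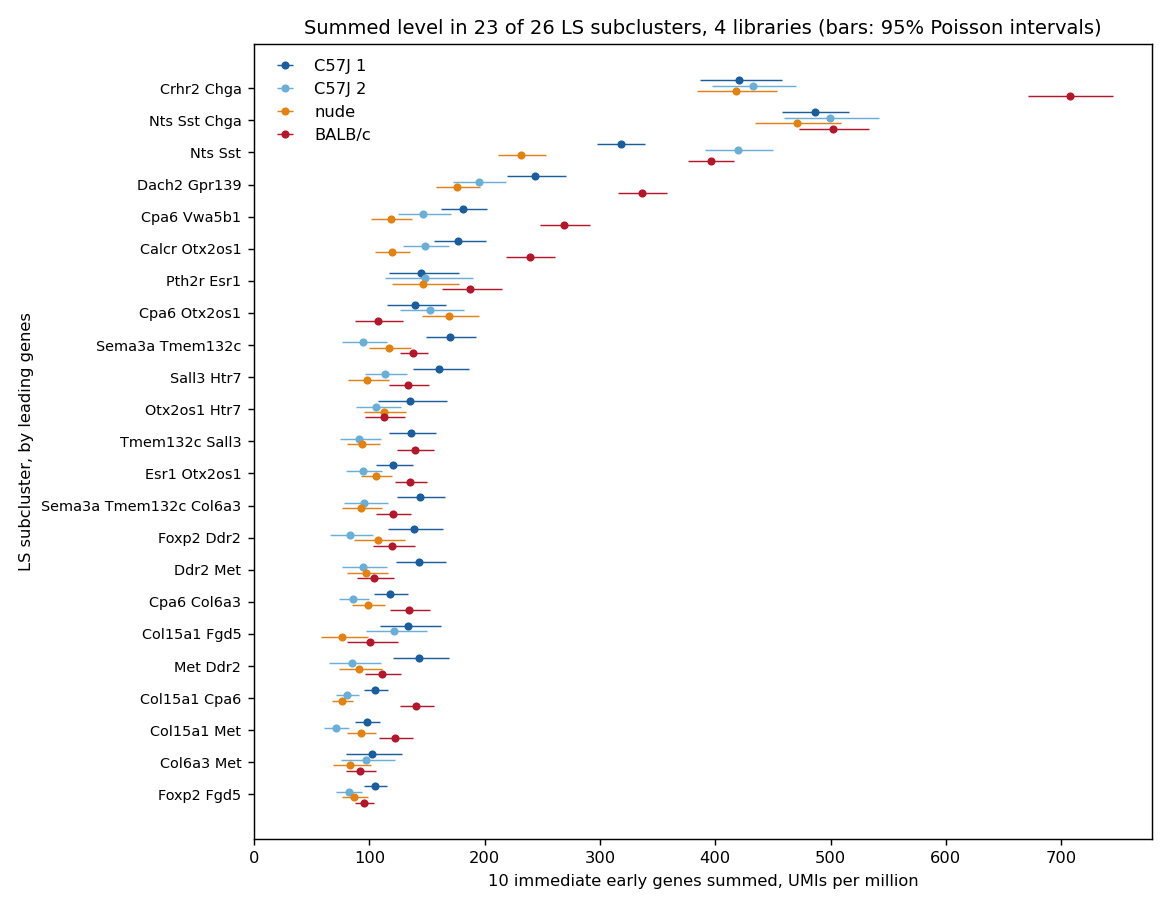
Summed level of the 10 members (CPM) in 23 of the 26 LS subclusters, ordered by the mean over libraries, with 1 point per library and exact 95% Poisson intervals. Crhr2 Chga and Nts Sst Chga lie at 418 CPM or more in every library, whereas Foxp2 Fgd5 lies at 105 CPM or less.

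The 5 subclusters made up 22.3%, 18.8%, 18.9% and 21.5% of the LS neurons and held 43.3%, 45.1%, 40.6% and 48.0% of the members' UMIs. Fosb was the most concentrated gene, with 75.3%, 78.9%, 76.0% and 77.5% of its LS UMIs in these nuclei. Fosb is the gene whose protein, as the long-lived splice form ΔFosB, builds up under repeated stimulation. Fos had 52.6% to 70.1% and Nr4a3 51.5% to 70.6% of their UMIs there. Jun at 32.1% to 40.6%, Egr1 at 32.6% to 38.8% and Nr4a1 at 29.6% to 40.4% had the lowest shares in C57J 1, C57J 2 and nude, and in BALB/c Nr4a2 was lower still.

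The members differed in which subcluster they favoured. Fos reached 39.9, 66.4, 33.5 and 46.5 CPM in Nts Sst Chga and 26.1, 49.3, 39.2 and 69.2 CPM in Crhr2 Chga, with no order between the 2 that held in all libraries. Its pairing partner Junb was highest on average in Crhr2 Chga, at 55.3, 67.6, 61.0 and 115 CPM. Npas4 averaged most in Crhr2 Chga at 48.4, 62.8, 34.1 and 86.7 CPM, although nude and C57J 2 had higher values in other subclusters. Nr4a3 averaged most in Nts Sst Chga at 86.9, 50.2, 93.7 and 38.6 CPM. The BALB/c library, highest for Fos and Junb in Crhr2 Chga, was the lowest for Nr4a3 in Nts Sst Chga.

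Nr4a2 again had its own pattern. By the mean over libraries it was highest in Nts Sst Chga at 22.6, 31.5, 12.2 and 4.18 CPM, and next in Calcr Otx2os1, a subcluster outside the highest 5, at 13.7, 10.5, 12.1 and 15.6 CPM. The order differed between libraries, since in BALB/c Calcr Otx2os1 was first and in C57J 2 Crhr2 Chga (14.3 CPM) and Nts Sst lay above it. In Calcr Otx2os1 the 4 libraries were close, whereas in Nts Sst (12.5, 13.3, 1.43 and 2.49 CPM) the C57J libraries lay above both others. The Nts Sst values rest on 74 UMIs over the 4 libraries. The share of Nr4a2 UMIs in the 5 subclusters was 57.6% and 56.7% in the C57J libraries and 34.0% and 28.2% in nude and BALB/c.

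**Figure D4:**
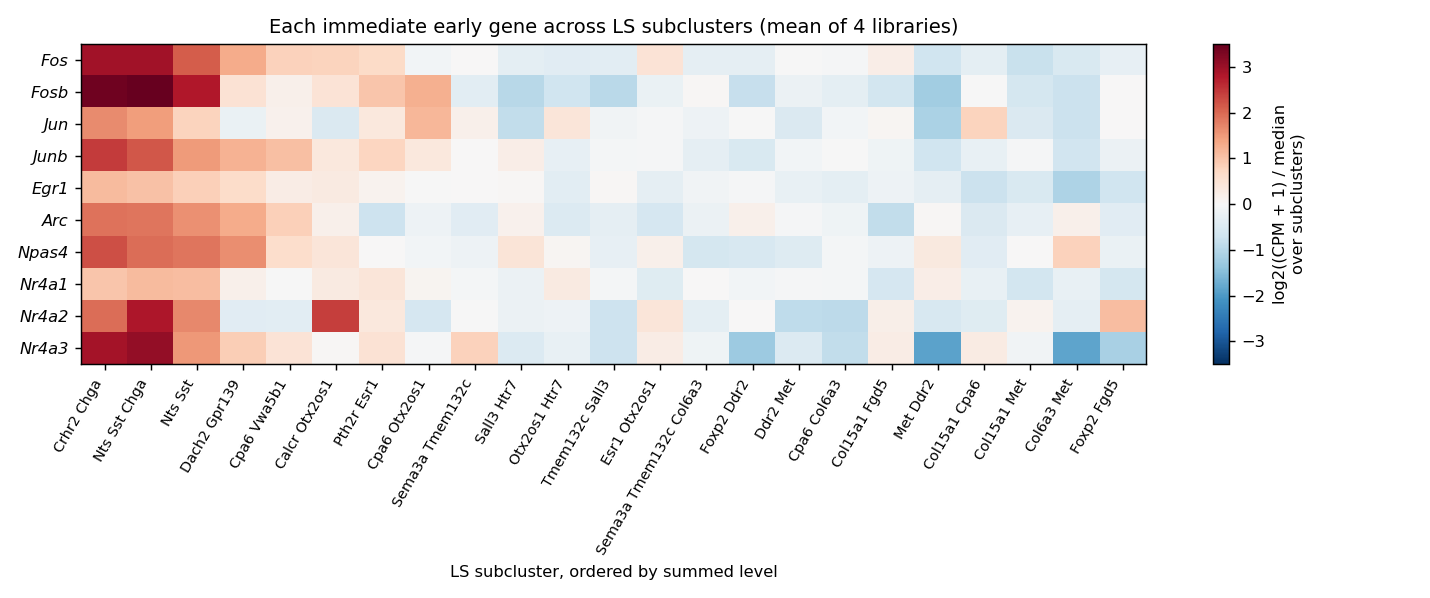
Level of each member (rows) in the same 23 LS subclusters (columns), as the log2 of the mean CPM over the 4 libraries plus 1, relative to the member's median over all 26 subclusters, and columns are ordered by the summed level. Fosb has the darkest cells on the left, Egr1 and Nr4a1 are paler there, and Nr4a2 has a second peak in Calcr Otx2os1.

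Depth and signs of stress were set beside the order. The median was 6368 to 13240 UMIs per nucleus in Crhr2 Chga and 6616 to 15430 in Nts Sst Chga, within the range of the other subclusters. Their mitochondrial shares were 0.133% to 0.358% and 0.139% to 0.329%, also within that range. Crhr2 Chga ranked 1 of 26 for the summed heat shock genes, at 541 to 691 CPM. Dach2 Gpr139 ranked 5, at 463 to 647 CPM, and Nts Sst Chga ranked 6, whereas Nts Sst ranked 14. Ranks 2, 3 and 4 went to Otx2os1 Htr7, Esr1 Otx2os1 and Pth2r Esr1, which lay outside the highest 5 for the members. The part of heat shock RNA in the order was not tested.

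The genes whose levels ran most like the summed members over LS subclusters and libraries were named by Pearson's r of log2(CPM + 1) over 97 units of at least 100 nuclei. Among 9009 genes these were the RNA 1700016P03Rik (r = 0.90), Egr3 (0.86), a relative of Egr1, the GTPase Rheb (0.85), the antiproliferative factor Btg2 (0.84) and the neurofilament protein gene Ina (0.84). Within single libraries the 5 genes had r of 0.77 to 0.95 over 23 to 26 subclusters. The units share libraries and depth, so r is a description. Of the members themselves, Fos ran closest to the sum of the other 9 (r = 0.91) and Junb next (0.90), and Jun (0.58) and Nr4a2 (0.54) ran least with it.

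Whether members met in the same nuclei was read at 1000 UMIs per nucleus, so that depth was equal. A UMI of 2 or more members was found in 1.72% (exact 95% Clopper-Pearson interval 1.39 to 2.11), 1.76%, 1.23% and 2.84% of LS neurons in C57J 1, C57J 2, nude and BALB/c. In astrocytes the share was 1.11%, 0.277%, 0.461% and 0.227%. In microglia it was 2.43%, 1.15%, 1.36% and 0.667%, on 2 to 8 nuclei each, and exceeded the LS neurons in C57J 1 and nude. A UMI of 3 or more members was found in 0.321%, 0.258%, 0.162% and 0.542% of LS neurons. In astrocytes it was found in 0 of 1987, 1802, 1736 and 1763 nuclei. The Clopper-Pearson upper limits there were 0.1855%, 0.2045%, 0.2123% and 0.209%, and the nude share of LS neurons lay below its limit. Other glia did have such nuclei, with 2 of 329, 1 of 347, 0 of 295 and 0 of 300 microglia. OLs had 1 of 1254 in C57J 1, and OPCs had 1 of 496 in nude.

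In LS nuclei with a Fos UMI another member was found in 25.5% (14.3 to 39.6), 47.6% (32.0 to 63.6), 43.2% (27.1 to 60.5) and 53.5% (39.9 to 66.7). In LS nuclei without Fos the share was 14.2%, 12.1%, 11.1% and 15.2%, so the share was higher beside Fos in 4 of 4 libraries. Over the 4 libraries Fosb was found in 4.79% of 188 nuclei with Fos and in 0.357% of nuclei without it, a ratio of 13.4 resting on 9 nuclei. The ratio was 7.56 for Nr4a2, on 5 nuclei, and 6.46 for Nr4a3, on 12 nuclei. It was 6.17 for Npas4, 4.95 for Junb and 3.49 for Arc. Each of these members was found more often beside Fos in all 4 libraries. Egr1 (2.58), Jun (1.66) and Nr4a1 (1.62) ran less with Fos. Jun was found beside Fos in 2 of 188 nuclei, both in nude, and in C57J 1 the shares of Egr1 (3.92% with Fos and 4.81% without) and Nr4a1 (1.96% and 3.15%) were lower beside Fos.

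Within the 5 highest subclusters the share was again higher beside Fos in 4 of 4 libraries. There another member was found in 50%, 63.0%, 52.4% and 65.4% of nuclei with Fos and in 23.1%, 23.7%, 19.8% and 27.3% of nuclei without it. In the other LS subclusters the shares were 6.90%, 20%, 31.2% and 43.8% with Fos, on 15 to 32 nuclei each, and 11.7%, 9.48%, 9.14% and 11.96% without it. In that part C57J 1 had no excess, at 2 of 29 nuclei.

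The study's main contrast set its C57J libraries against nude and BALB/c. In LS neurons none of the 10 members was called, compared with 2.3% of the 18614 genes tested with edgeR. At an unadjusted p under 0.05 there was 1 member, Nr4a2, with a log2 fold change of -0.998 (SE 0.21, edgeR adjusted p = 0.0713). It was the only member whose levels did not overlap between the groups, compared with 26.2% of genes without overlap in that direction. DESeq2 called it (adjusted p = 0.019), as did edgeR with no low-count filter (0.0112). Without C57J 2 only C57J 1, the batch 1 library, is left in its group. Background and batch cannot be told apart in that fit. Over all alternatives its adjusted p ran from 0.0112 to 0.532, the last on thinned nuclei.

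The other 9 members had log2 fold changes between -0.01 for Arc and 0.45 (SE 0.46) for Fosb. Their groups overlapped, and nude and BALB/c mostly lay at opposite ends. Relative to C57J 2, sequenced in the same batch, nude was lower for 6 members and BALB/c higher for 9. On the log2 scale with C57J 2 at 0, Fos stood at -0.62 for nude and 0.56 for BALB/c, and Fosb at -0.72 and 0.79. Nr4a2 was below 0 for both, at -1.08 and -0.96, while its C57J 1 value was 0.01. BALB/c lay above nude for 10 of 10 members in LS neurons, with log2 ratios of nude over BALB/c from -1.51 for Fosb to -0.12 for Nr4a2. It also lay above nude for 8 of 10 in other neurons and 6 of 9 in microglia. The order turned in astrocytes, OLs and OPCs, with nude above BALB/c for 7, 8 and 7 of 10 members. For these library ratios the share of all genes in each direction was not computed. In LS neurons depth ran along with the difference, at a median of 12820 UMIs in BALB/c and 6420 in nude. In glia the 8 neuronal genes were also nearer their neuron level in nude than in BALB/c. Their medians were 58.5% and 30.4% in astrocytes, 71.2% and 33.5% in OLs and 55.8% and 34.8% in OPCs. In microglia, where the order of the members did not turn, they were 89.6% and 49.3%. The part of free neuronal RNA in the turned order was not tested. With 1 library each no test was possible.

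**Figure D5:**
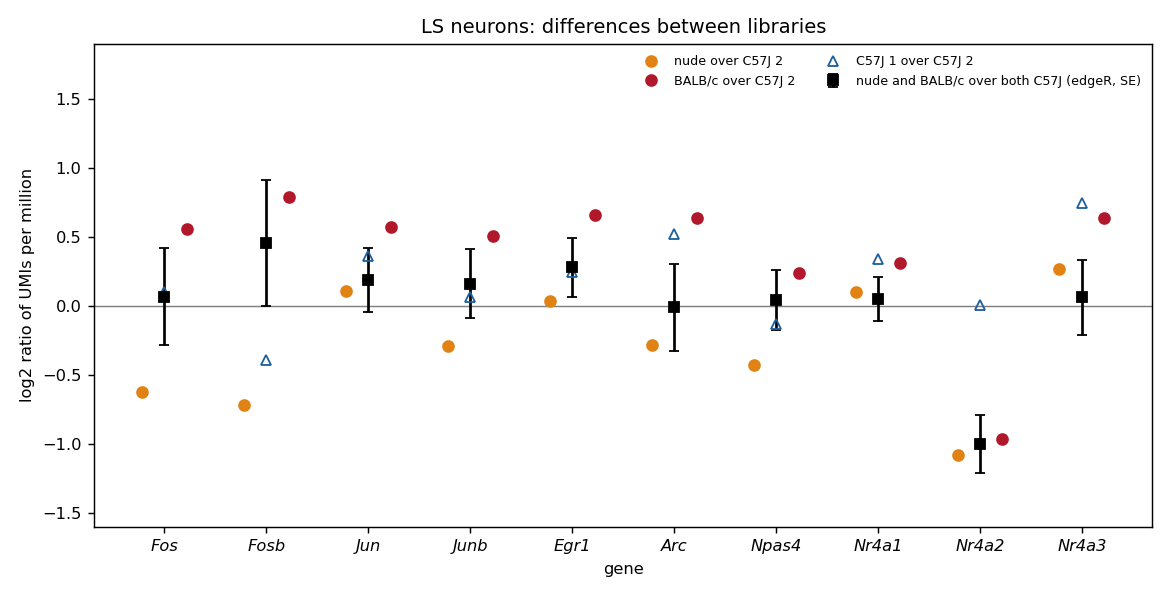
Level of each member in LS neurons relative to C57J 2 (log2) in the other libraries, where 0 is the C57J 2 level; black squares are the edgeR log2 fold change of nude and BALB/c over both C57J libraries with its SE. BALB/c lies above 0 for 9 of 10 members, and Nr4a2 is the only member for which nude and BALB/c both lie below 0, at -1.08 and -0.96.

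The remaining classes gave no call either. In other neurons none of the 10 members was called, compared with 0.816% of genes, and 1, Npas4, had an unadjusted p under 0.05 (log2 fold change -0.49, SE 0.20). In the fit without C57J 2 background again cannot be told apart from batch. In astrocytes none of 10 was called, compared with 0.0641% of genes, in OLs none of 8 tested (0.0635%), in OPCs none of 5 (0.211%) and in microglia none of 4 (0.0336%), and in these 4 classes no member had an unadjusted p under 0.05. DESeq2 called no member in those 5 classes. In astrocytes C57J 1 was above C57J 2 for 9 of 10 members and BALB/c below C57J 2 for 7, and the share of all genes in these directions was not computed.

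The background difference was compared between LS neurons and astrocytes as an interaction in edgeR. None of 10 members and 0% of 18604 genes were called, and no member had an unadjusted p under 0.05. The differences were 0.95 (SE 0.40) for Jun, 0.87 (SE 0.53) for Arc and -0.72 (SE 0.40) for Nr4a2. Without nude some members were called, but that fit has 1 library of the BALB/c background. The share of all genes called in it was not computed.

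Further genes of the pathway were counted by lists. Of the other rapid immediate early genes 25 of 26 were tested in the background contrast of LS neurons and none was called, with a median log2 fold change of 0.18 where all genes had -0.01. Later activity-regulated genes (13 of 14 tested, median 0.29), upstream regulators (16 of 16, median 0.03) and heat shock genes (10 of 11, median 0.09) also had no call. In LS neurons against other neurons, 8 rapid genes were called higher and 2 lower among 23 tested, where 9.45% of all genes were higher and 12.6% lower. The higher ones included Egr2 at 1.71 (SE 0.28), Egr4 at 1.30 (SE 0.21) and Ier2 at 1.15 (SE 0.34), and the lower ones were Ccn1 at -1.68 (SE 0.33) and Csrnp1 at -0.71 (SE 0.20).

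The later genes were split, with 5 higher and 5 lower of 13, against the same 9.45% and 12.6% of all genes. Dusp5, a phosphatase that restrains ERK signals, was higher at 1.35 (SE 0.16), while the synaptic growth gene Nrn1 at -3.22 (SE 0.20) and the neurotrophin Bdnf at -1.91 (SE 0.21) were lower. Among the regulators 3 of 16 were higher, namely Camk2a at 1.22 (SE 0.08), Srf at 0.52 (SE 0.11) and Mrtfb at 0.50 (SE 0.05), again beside 9.45% of all genes, and of 10 heat shock genes none was called. Against astrocytes the rapid genes had 4 higher and 11 lower in neurons of 24 tested, where 26.4% of all genes were higher and 26.1% lower. The growth factor responsive Ccn1 at -3.31 (SE 0.22) and Zfp36 at -2.98 (SE 0.37) were the lowest, and Sik1 at 1.52 (SE 0.25) the highest.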

How the data were processed

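The authors dissociated frozen LS tissue, prepared 10x 3′ libraries and processed them with Cell Ranger 7.0.1 on mm10. The deposited matrices hold raw UMI counts per gene and nucleus, and whether intronic reads were counted is not given in the sources used here. Nuclei with 200 to 6000 genes, 300 to 50000 UMIs and under 2% mitochondrial UMIs were kept, and doublets predicted from simulated mixtures were removed. Nuclei were clustered (scanpy 1.11.5, leidenalg 0.10.2, resolution 1). The members, the rapid, later and heat shock lists and 153 genes that differed between the backgrounds were left out of the clustering. Classes were named from marker lists. UMIs were summed per library and class and tested in edgeR 4.0.16 (quasi-likelihood, filterByExpr, TMM, Benjamini-Hochberg over all genes), and DESeq2 1.42.0, other scaling, filters and thinning, and each library left out in turn were alternatives. Nuclei were thinned to 1000 UMIs for shares. All 10 members were named by rule, and 3 LS subclusters are not reported singly here. The members and lists were chosen with earlier results of these data known. The statistical steps were tested on simulated data with 200 changed genes. Total UMIs per library ranged from 72912922 to 125998527.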

Additional observations from a re-analysis of the deposited data

How the results depend on the processing

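For the contrast of C57J with nude and BALB/c, no paired analysis was possible because the groups compared share fewer than 2 replicate numbers. The cell class and interaction fits had the library as a block. Depth and the number of libraries set the limits, since nude and BALB/c had 1 library each and glial levels rested on few UMIs. Counts, shares and levels were read under other settings, which differed between the results. The cell class fits had DESeq2, thinning, no scaling factors and each library left out. The interaction had only thinning and each library left out. Of these values 151 stayed near the main value, which allows a limited change in a count, and 79 moved. Of values for single members 394 kept direction and side of the threshold, 29 lost it, 17 gained it and 40 turned sign. The cause of a change was not tested, except that thinning leaves fewer UMIs. In the contrast of C57J with nude and BALB/c, DESeq2 called 1 member in LS neurons and 673 genes (429 in edgeR), 380 in other neurons, 77 in astrocytes, 72 in OLs and 13 in microglia. Without the low-count filter these counts were 1 member, 1074, 1052, 396, 245 and 89 genes, and 186 in OPCs. Thinned to 1000 UMIs they were 218 in LS neurons, 52, 2, 1 and 0 in other neurons, astrocytes, OLs and microglia, and 12 in OPCs. With doublets kept there were 79 in astrocytes, 105 in OLs, 92 in OPCs and 80 in microglia. With batch as a term there were 0 in astrocytes, 0 in OLs, 46 in OPCs and 6 in microglia, and without scaling factors 0 in OLs and 6 in microglia. Stricter quality limits gave 6 in microglia.

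In that contrast the sign turned in LS neurons on thinned nuclei for Junb (-0.19), Arc (0.034), Npas4 (-0.015) and Nr4a1 (-0.0022), with batch as a term for Arc (0.31), and with subclusters weighted equally for Npas4 (-0.044). With 1 library left out at a time the log2 fold change ran from -0.65 to 0.55 for Fos, -0.51 to 1.03 for Fosb, -0.071 to 0.42 for Jun, -0.31 to 0.52 for Junb, -0.078 to 0.58 for Egr1, -0.55 to 0.40 for Arc, -0.34 to 0.35 for Npas4, -0.13 to 0.26 for Nr4a1 and -0.27 to 0.52 for Nr4a3, and all 9 were below 0 without BALB/c. The members called ran from 0 to 1 in LS and in other neurons, both times 1 without C57J 2. The genes called ran from 75 (without BALB/c) to 1011 (without C57J 2) in LS neurons, 36 to 766 in other neurons, 0 to 808 in astrocytes, 0 to 748 in OLs, 49 to 490 in OPCs and 0 to 783 in microglia, with the highest glial counts without nude. The interaction called no member in the full fit and some without nude, where 1 library of the BALB/c background is left. Its alternatives, the neuron fits without scaling factors and the low-depth cluster counted with LS neurons were chosen after seeing the data. In the contrast of C57J with nude and BALB/c, each fit without 1 library leaves 1 library in a group. Without C57J 2 that library is C57J 1 of batch 1, so background and batch cannot be told apart there.

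Between cell classes, thinning gave 1 member lower against astrocytes, 2 higher against OPCs, 2 higher and 2 lower against microglia, and 3 higher in LS against other neurons. DESeq2 gave 2 higher against OPCs, and no scaling factors 2 lower against astrocytes and 2 lower against microglia. For the alternatives of the cell class fits the share of all genes called was not computed. On thinned nuclei the sign turned for Fos against OLs (-0.049), Junb against OPCs (-0.021) and Jun in LS against other neurons (-0.22). Without scaling factors it turned for Egr1 against OLs (-0.018), and against microglia for Fos (-0.35), Egr1 (-0.41), Arc (-0.033) and Nr4a2 (-0.35). Leaving out 1 library, the members higher ran from 4 to 6 against astrocytes (0 to 1 lower), 2 to 5 against OPCs and 4 to 8 in LS against other neurons, and the members lower from 0 to 2 against microglia. Signs turned there for Egr1 against astrocytes (-0.029 to 0.48), Fos, Egr1 and Arc against OLs (-0.14 to 0.51, -0.26 to 0.20 and -0.12 to 0.26), Nr4a1 and Nr4a2 against OPCs (-0.0064 to 0.24 and -0.38 to 0.16), and Fos, Egr1, Arc and Nr4a2 against microglia (-0.14 to 0.63, -0.22 to 0.36, -0.11 to 1.25 and -0.26 to 0.82). The share of LS neurons with a member UMI was 26.4%, 20.7%, 19.8% and 27.6% at 2000 UMIs and 62.8%, 47.1%, 46.4% and 72.1% without thinning. At clustering resolution 2 the highest subcluster held 712 CPM (494.8 at resolution 1).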

Other observations

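At the finer clustering resolution the highest subcluster was smaller. A subcluster of 274 LS neurons with the leading genes Chga and Cpa6 held a mean of 712 CPM of the 10 members, from 524 to 965 CPM over the libraries, and was first in each of them. Its top genes included 1700016P03Rik, Nr4a3 and Btg2. As 1700016P03Rik and Chga, which ran with the members (r = 0.90 and 0.80), were not left out of the clustering, their part in this division was not tested. Nts Sst Chga, with 634 nuclei at this resolution, held 483.5 to 515 CPM. Crhr2 Dach2, a subcluster of 410 nuclei at this resolution, held 193 to 343 CPM and ranked 4 by the mean of 295 CPM. How the nuclei of Crhr2 Chga were divided between the finer subclusters is not given here.

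Striatal neurons, which carry dopamine receptor genes and border the dissected region, had a higher share of nuclei with several members than LS neurons at 1000 UMIs. At 1000 UMIs per nucleus a UMI of 2 or more members was found in 3.74%, 2.24%, 2.67% and 3.48% of striatal nuclei in C57J 1, C57J 2, nude and BALB/c, above the LS share of the same library in each. The difference was not tested, and the striatal nuclei numbered 431 to 1550 per library.

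A cluster of low depth that could not be named held 85, 374, 290 and 53 nuclei in the 4 libraries, with medians of 1411 to 2295 UMIs and 1.07% to 1.67% mitochondrial UMIs. Its Egr1 level was 109.7, 76.7, 101 and 137 CPM, above the LS neurons of the same library each time. These nuclei were counted in no class.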
